A study of Mus musculus with 12 samples.

Results

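The genes described here are 51 that work in mitosis: the mitotic cyclins and their kinase, the kinases and motors of the spindle, the proteins of the centromere and kinetochore, the checkpoint, the machinery of sister separation, and that of cytokinesis. They were chosen by name and role, with no measured value in the rule, from the 38127 genes counted in each of 12 RNA-seq libraries, and all 51 names were found. Of these, 49 were tested. *Bub3*, the checkpoint protein that carries BUB1 to kinetochores, and *Prc1*, which bundles the microtubules of the spindle midzone, had 0 counts in all 12 libraries, where a count of 0 allows up to 3 counts per library. In the annotation *Bub3* overlaps *Fgfr2* on the opposite strand and *Prc1* overlaps *Rccd1* on the opposite strand, and the means of *Fgfr2* over the 4 groups ran from 3414 to 7819 CPM (read counts relative to the TMM-adjusted library size, on a common scale) and those of *Rccd1* from 2.82 to 9.32 CPM. Whether counting on overlapping genes left these 2 members at 0 was not tested.

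Cells enter mitosis when CDK1, bound to cyclin B, is freed of its inhibitory phosphates by CDC25 phosphatases. Chromosomes then attach to the spindle through kinetochores, the checkpoint holds anaphase back until all are attached, and CDC20 with the anaphase promoting complex (APC/C) then frees separase and destroys cyclin B. Most of these genes are silent in resting cells and are transcribed in G2 and M phase through the MuvB complex with B-MYB and FOXM1, so their RNA levels are commonly read as a mark of dividing cells, which in the fetal liver include erythroid progenitors and hepatoblasts.

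The cells were sorted from fetal livers of C57BL/6 embryos, depleted of Ter119+ and CD45+ cells in every group, with 3 libraries per group. At E14.5 (embryonic day 14.5) the groups were P2 cells (CD54-CD31-Kit+CD24+), CD54+CD31- cells (called CD324+ in the study), and CD31+ cells (CD54+CD31+). The fourth group was CD54+CD31- cells at E18.5. Each group is a sort gate on fetal liver cells of 1 strain and not a purified cell type, and in bulk RNA fewer dividing cells and less of a transcript per cell cannot be told apart.

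Total counts ran from 40714017 to 64368883 per library, and 8 genes (among them *Alb*, *Sftpc*, and *Cdk8*) held 19.9% to 37.2% of a library's counts. Of the defining markers, *Klf1* had 414, 429, and 347 CPM in P2 cells, *Alb* had 40957, 46619, and 46668 in CD54+CD31- cells at E14.5, and *Cdh5* had 1626, 1712, and 1592 in CD31+ cells, each the highest of the E14.5 groups. The E18.5 libraries held lung epithelial RNA: all 11 lung markers reached 1 CPM there, with *Sftpc* at 12375, 5094, and 5403 CPM and *Nkx2-1* at 377, 259, and 229.8, against at most 1.73 and 0.0359 in any E14.5 library. *Alb* was at 2405, 26604, and 34530.0 in the same 3 libraries, so replicate 1 stood apart from the other two in *Sftpc* and *Alb*. Summed over 15 erythroid markers, of which 14 reached 1 CPM and *Alas2* was at 0 in every group, the level was 3608 to 3900 CPM in P2 cells, 758 to 1372 in CD54+CD31- cells, 577 to 1015 in CD31+ cells, and 126 to 440 at E18.5. These sums and the summed level of the mitotic genes had the same highest and lowest group, and the part of erythroid cells in the results below was not tested.

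Summed over the members, the level was 10215, 9793, and 10370.0 CPM in the P2 libraries. It was 5476, 6207, and 5674 in the CD54+CD31- libraries and 5808, 6412, and 5683 in the CD31+ libraries. The E18.5 libraries had 764, 1700, and 1596. Every P2 library was above every other library in this sum, the CD54+CD31- and CD31+ libraries at E14.5 overlapped, and every E18.5 library was below the other 9. *Mki67*, whose protein is the Ki-67 antigen that coats mitotic chromosomes, alone made up the difference between these sums and 7003 ± 73.9 (SD, n = 3) in P2 cells, 4185 ± 259 in CD54+CD31- cells, 4370 ± 331 in CD31+ cells, and 895 ± 286 at E18.5, and the order with *Mki67* left out was the same.

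**Figure D1:**
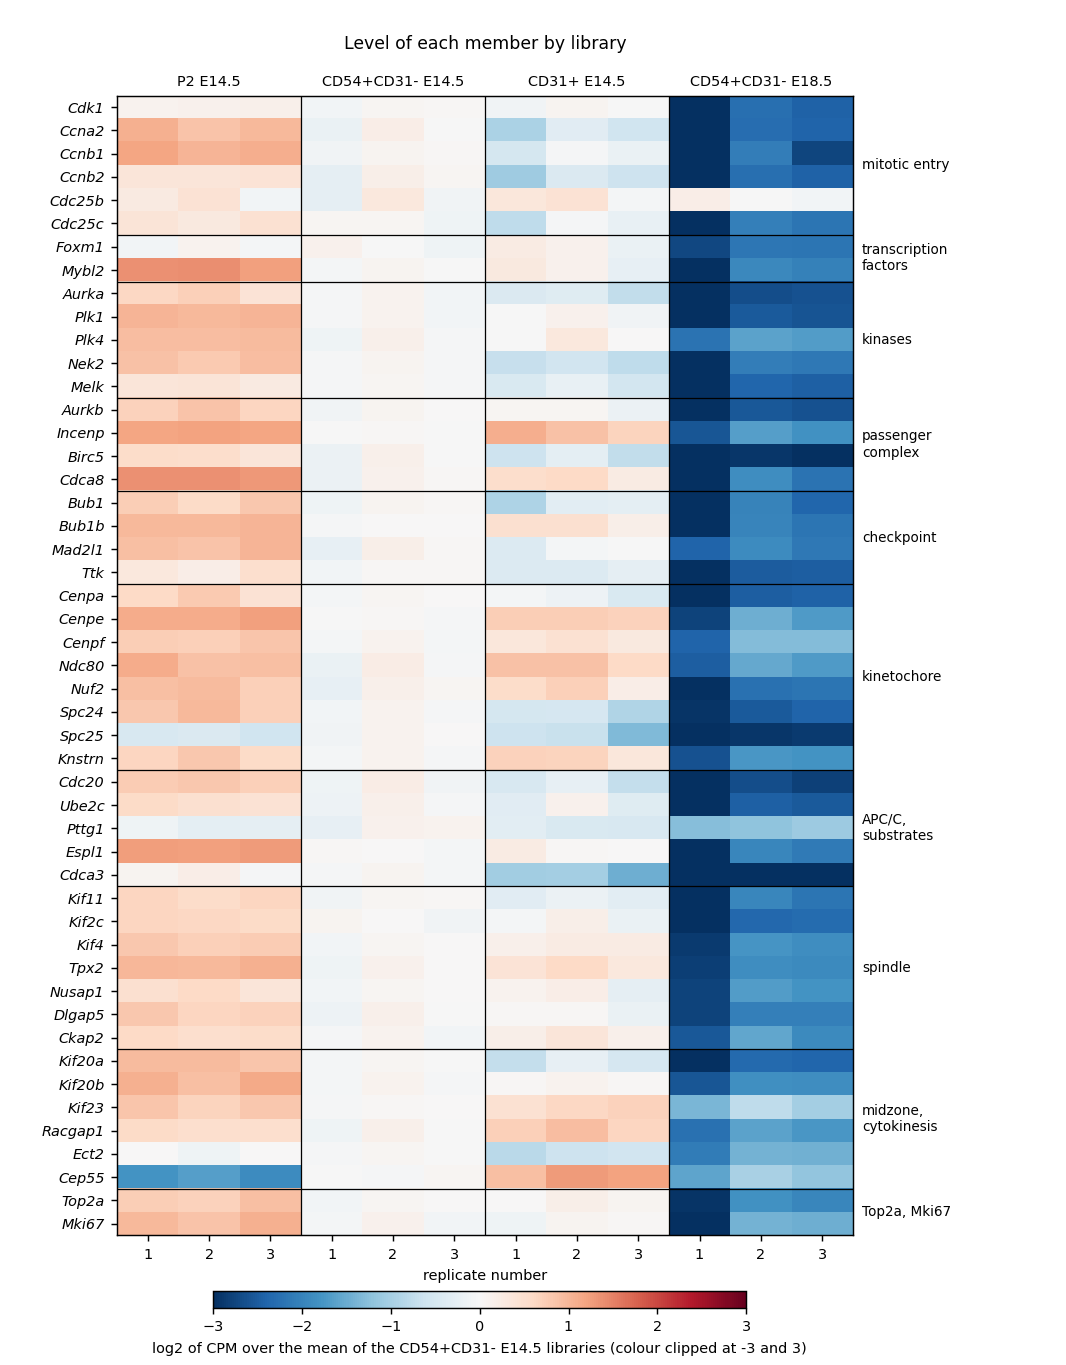
Level of the 49 detected members (rows, by role) in the 12 libraries (columns), as log2 of CPM over the mean of the 3 CD54+CD31- libraries at E14.5. P2 columns are mostly red, with *Cep55* and *Spc25* blue, and the E18.5 columns are blue apart from *Cdc25b*, deepest in replicate 1.

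P2 cells had more RNA of most mitotic genes than CD54+CD31- cells of the same age. Of the 49 tested members, 39 were higher in P2 cells, 2 were lower, and 8 did not pass in edgeR's quasi-likelihood test at an adjusted p below 0.05 (Benjamini and Hochberg, over 15461 genes). Of all genes tested, 70.0% were called, 33.8% higher and 36.1% lower. The median log2 fold change of the members was 0.72, beside -0.01 for all genes, and the range ran from -1.79 for *Cep55* to 1.33 for *Cdca8*. In 42 members every P2 library lay above every CD54+CD31- library and in 2 below, where 37.6% and 37.7% of all genes tested separated in these directions. The 8 not called were *Cdk1*, *Ccnb2*, *Cdc25b*, *Cdc25c*, *Foxm1*, *Pttg1*, *Cdca3*, and *Ect2*. With the authors' own library factors in place of TMM, the median of all genes moved by -0.26, and 34 members were higher and 4 lower. The members stood 0.73 above the median of all genes under both scalings. That gap could hardly change, because library factors move all genes of a comparison nearly alike.

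Against CD31+ cells, 38 members were higher in P2 cells, 2 were lower, and 9 did not pass, where 73.7% of all genes tested were called, 34.3% higher and 39.4% lower. The median was 0.69, beside -0.13 for all genes, with a range from -2.92 for *Cep55* to 1.57 for *Ccna2*. Every P2 library was above every CD31+ library in 43 members and below in 2, where 36.8% and 40.2% of all genes tested separated in these directions. The members not called included 4 of the 8 kinetochore genes (*Ndc80*, *Nuf2*, *Spc25*, *Knstrn*), together with *Cdk1*, *Cdc25b*, *Foxm1*, *Pttg1*, and *Kif23*. The authors' factors moved the median of all genes by -0.37 and gave 29 members higher and 5 lower. The members stood 0.82 above the median of all genes under both scalings, a gap that a change of library factors could again hardly alter.

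CD31+ and CD54+CD31- cells at E14.5 did not differ in 1 direction: 14 members were higher in CD31+ cells, 16 were lower, and 19 did not pass, where 65.6% of all genes tested were called, 31.7% higher and 34.0% lower. The median was -0.010, beside -0.031 for all genes, and the range ran from -1.17 for *Cdca3* to 1.13 for *Cep55*. In 14 members every CD31+ library lay above every CD54+CD31- library and in 17 below, where 33.8% and 35.7% of all genes tested separated in these directions. Without CD31+ replicate 2, 9 members were higher and 19 lower, and with all 12 libraries in one fit 7 were higher and 8 lower. *Birc5*, *Cdca8*, *Bub1*, *Bub1b*, *Nuf2*, *Tpx2*, and *Kif11* were among the members whose call, given below, was lost in that fit. Markers of other cells moved between these gates too. All 12 endothelial markers were higher in CD31+ cells (sums of 10388 to 11068 against 46.7 to 77.2 CPM), as were all 7 megakaryocyte markers (median 3.03, sums of 471 to 752 against 51.1 to 63.2 CPM), and all 14 hepatoblast markers tested were lower (median -6.24). The 12 macrophage markers summed to 1363 to 1629 against 166 to 290.2 CPM, although 8 were lower and only 1 was higher (median -1.395, highest 5.67). The 8 granulocyte markers summed to 144 to 627 against 9.90 to 129.7 CPM, with 3 higher and 1 lower. Their part in the difference between CD31+ and CD54+CD31- cells was not tested. These 3 comparisons share libraries, so their values are given side by side for each gene below and are not independent of one another.

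Between E14.5 and E18.5 in CD54+CD31- cells, 48 members were lower at E18.5, 0 were higher, and *Cdc25b* did not pass, where 69.4% of all genes tested were called, 35.9% higher and 33.5% lower, among 15863 genes. The median was -2.15, beside 0.033 for all genes, and the range ran from -3.21 for *Cdca3* to 0.23 for *Cdc25b*. In 48 members every E18.5 library was below every E14.5 library, where 43.0% of all genes tested separated in this direction. Within the E18.5 group replicate 1 was the lowest library for 48 of the 49 members, at a median of 0.512 times the mean of the other two. How many of all genes were lowest in replicate 1 was not counted, and that library also stood apart in *Sftpc* and *Alb*. Without replicate 1 the median was -1.90 and 48 members were again lower. Lung, mesenchymal, hepatoblast, endothelial, and erythroid markers moved with age as well. The 11 lung markers summed to 11634 to 24934.5 CPM at E18.5 against 155 to 169 CPM at E14.5. Of 10 mesenchymal markers 9 reached 1 CPM, with *Lrat* at 0, and they summed to 4224 to 4458 against 1169 to 1222. The 15 hepatoblast markers, 14 of which reached 1 CPM, summed to 6377 to 52793 against 76548 to 88110.0, and of the 14 tested 6 were lower at E18.5, 2 higher, and 6 not called. All 12 endothelial markers were higher at E18.5 (median 2.15) and summed to 212 to 270.1 against 46.7 to 77.2. Of 14 erythroid markers tested 8 were lower and 0 higher (median -1.91), with the sums given above. Their part in the age difference was not tested.

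**Figure D2:**
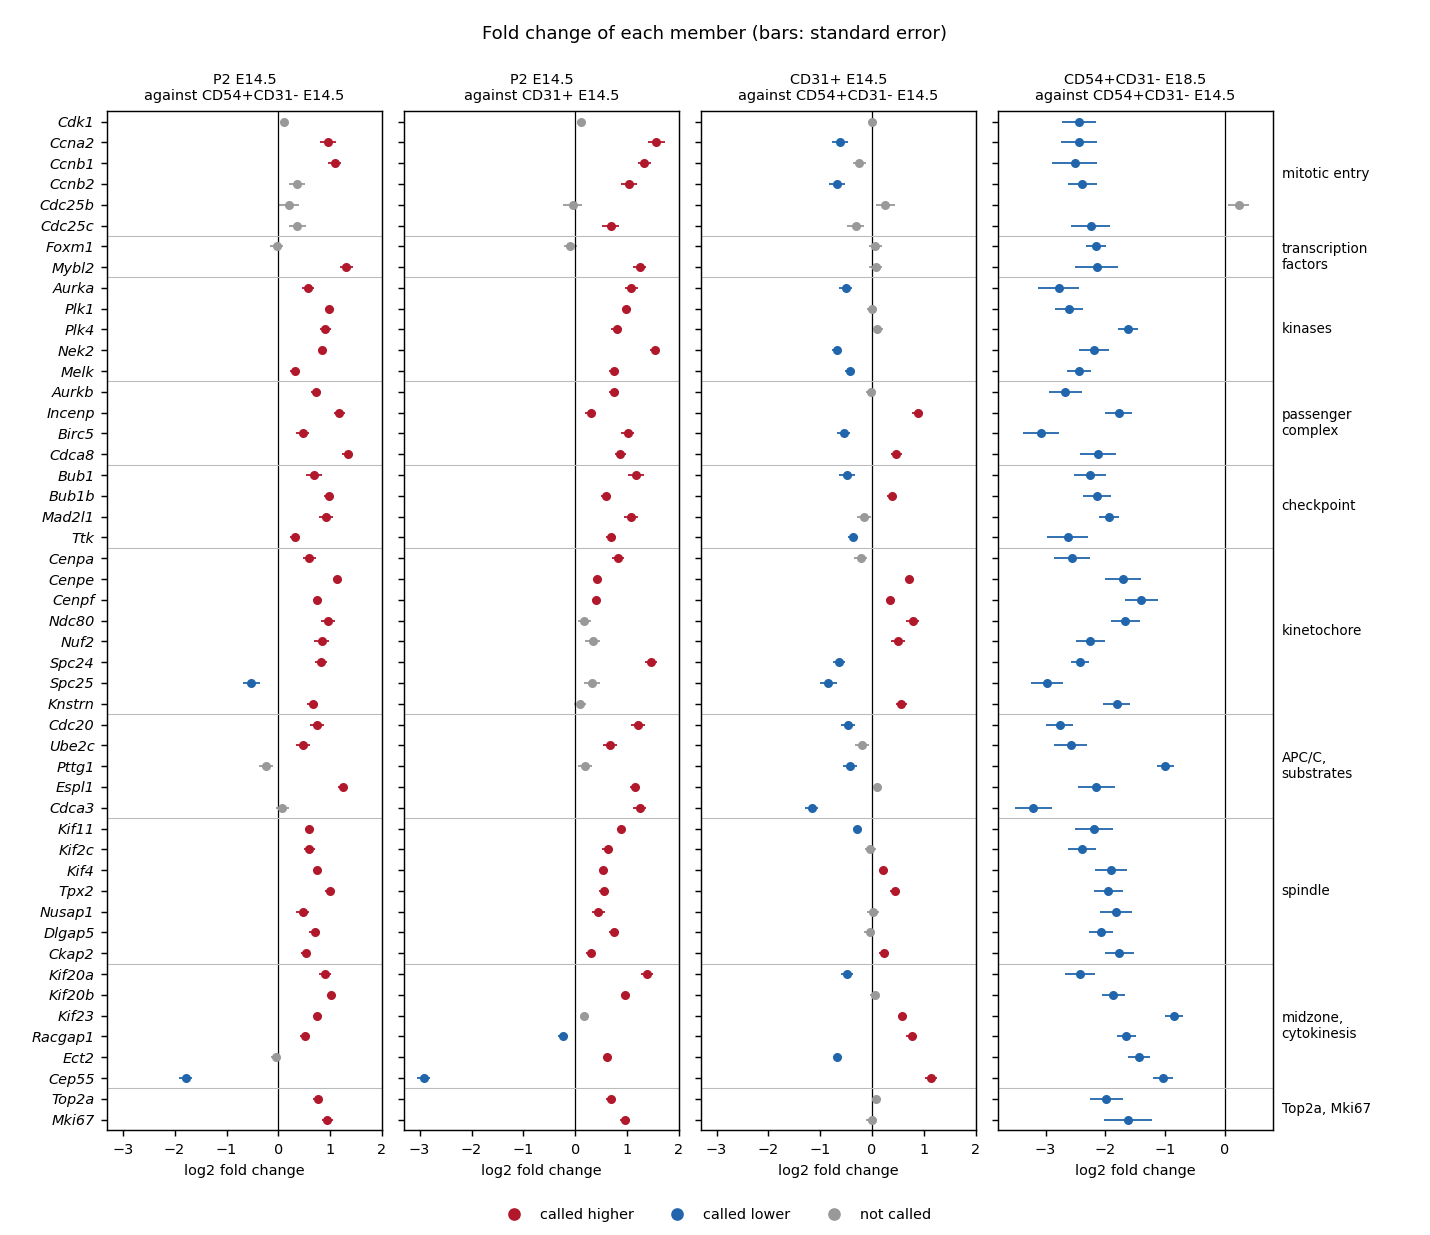
Log2 fold change of each member (points, bars SE) in the 4 comparisons, by role, coloured by call at an adjusted p below 0.05. In the first and second panels most points lie right of 0 with *Cep55* far to the left, in the third they scatter on both sides, and in the fourth all but *Cdc25b* lie left of 0.

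Many members share short sequence elements in their promoters that the choice of genes did not use. The RefSeq promoter table for GRCm38.p6, from 250 bases before each start to 50 after it, held 42 of the 51 members, and *Aurkb*, *Ccna2*, *Cdc25c*, *Dlgap5*, *Foxm1*, *Incenp*, *Kif20a*, *Spc24*, and *Tpx2* were not matched. The letters of the cell cycle homology region, the element bound by MuvB, were searched on both strands as TTTGAA and, separately, as TTTAAA, which reads the same on both strands. The box bound by NF-Y was searched as CCAAT. For the E2F site only the letters TTCGCGC and TTGGCGC were searched, so other forms of the site were not counted. An E2F match on the other strand can overlap a box, as in GCGCCAAT. TTTGAA was present in 28 of the 42 members (66.7%), against 20.2% of the 27025 genes in the table and 14.7% of the 11168 tested genes in it. TTTAAA was in 23.8% of the members against 14.9% of all genes and 11.4% of tested genes, CCAAT in 69.0% against 41.1% and 42.3%, and the E2F letters in 9.52% against 4.47% and 7.51%. Of 29 DNA replication genes in the table, 13.8% held TTTGAA and 37.9% the E2F letters, and of 69 other mitotic genes, 52.2% held TTTGAA. In the 250 bases upstream of the start alone, 33.3% of the members held TTTGAA against 18.3% of all genes, so part of the matches lay in the first bases of the transcript. A match is a run of letters and not a measured binding site.

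Promoters of 6 members are shown as examples of patterns of level. *Ccnb1*, *Plk1*, and *Mybl2* were higher in P2 cells, and *Cep55* was lower in P2 cells. *Cdk1* did not pass in any comparison within E14.5, and *Cdc25b* did not pass in any of the 4 comparisons. The 6 members were picked with these values known, and other members with patterns of their own are not shown. Each is the 120 bases before the start on the strand of the gene, from the RefSeq table of GRCm38.p6, at chr13:100786487-100786606 (minus strand) for *Ccnb1*, chr7:122159315-122159434 (plus) for *Plk1*, chr2:163054515-163054634 (plus) for *Mybl2*, chr10:69352913-69353032 (minus) for *Cdk1*, chr2:131186828-131186947 (plus) for *Cdc25b*, and chr19:38054921-38055040 (plus) for the second of 2 starts of *Cep55*. Capitals mark the searched letters on either strand (ATTGG is CCAAT and TTCAAA is TTTGAA on the other strand).
Ccnb1: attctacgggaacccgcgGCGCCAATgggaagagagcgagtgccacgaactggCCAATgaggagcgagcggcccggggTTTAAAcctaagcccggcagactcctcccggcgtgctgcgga
Plk1: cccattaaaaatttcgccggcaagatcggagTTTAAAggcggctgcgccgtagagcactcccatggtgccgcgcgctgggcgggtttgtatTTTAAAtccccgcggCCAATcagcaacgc
Mybl2: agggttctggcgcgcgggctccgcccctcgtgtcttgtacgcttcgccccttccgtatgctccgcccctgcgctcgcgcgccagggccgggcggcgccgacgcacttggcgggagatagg
Cdk1: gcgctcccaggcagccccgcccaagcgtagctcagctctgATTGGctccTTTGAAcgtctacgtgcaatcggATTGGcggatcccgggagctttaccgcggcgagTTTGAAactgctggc
Cdc25b: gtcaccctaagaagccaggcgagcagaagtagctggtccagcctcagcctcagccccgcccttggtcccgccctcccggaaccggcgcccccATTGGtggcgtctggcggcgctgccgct
Cep55: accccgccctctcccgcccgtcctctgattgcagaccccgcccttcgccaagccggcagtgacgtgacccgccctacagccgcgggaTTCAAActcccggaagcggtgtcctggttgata
*Cdk1* and *Cep55* both held TTTGAA in these windows, *Ccnb1* and *Plk1* held TTTAAA, and the *Mybl2* window held none of the searched letters. That does not show that *Mybl2* lacks an E2F site: its window holds ttggcgg, which differs from the searched TTGGCGC only in the last base.

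Among the genes of mitotic entry, the kinase itself and its cyclins did not move alike. *Cdk1*, the kinase that drives entry, had 88.4, 90.5, and 91.3 CPM in P2 cells and 78.02, 85.5, and 84.3 in CD54+CD31- cells. It had 77.1, 87.7, and 82.5 in CD31+ cells and 7.71, 17.3, and 15.4 at E18.5. The P2 libraries lay just above the other E14.5 libraries, and the E18.5 libraries far below. On the log2 scale the change in P2 cells was 0.11 ± 0.078 (SE, edgeR's adjusted p = 0.248) against CD54+CD31- cells and 0.12 ± 0.078 (SE, edgeR's adjusted p = 0.203) against CD31+ cells, the latter -0.25 (edgeR's adjusted p = 0.0105) with the authors' factors and 0.23 (edgeR's adjusted p = 0.0345) without CD31+ replicate 2. Between CD31+ and CD54+CD31- cells it was -0.0097 ± 0.078 (SE, edgeR's adjusted p = 0.920), and at E18.5 -2.44 ± 0.28 (SE, edgeR's adjusted p = 0.000319).

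*Ccnb1*, cyclin B1, its partner at mitotic entry, had 46.7, 41.8, and 43.7 CPM in P2 cells and 18.98, 21.6, and 20.9 in CD54+CD31- cells. It had 14.2, 20.2, and 17.8 in CD31+ cells and 1.58, 4.904, and 3.03 at E18.5. Here the P2 libraries were all about 2 times the others of E14.5, which overlapped one another. In log2 terms the difference was 1.08 ± 0.13 (SE, edgeR's adjusted p = 2.24e-05) against CD54+CD31- cells and 1.33 ± 0.13 (SE, edgeR's adjusted p = 4.73e-06) against CD31+ cells. CD31+ and CD54+CD31- cells gave -0.24 ± 0.13 (SE, edgeR's adjusted p = 0.113), or -0.44 (edgeR's adjusted p = 0.0110) without CD31+ replicate 2, and E18.5 gave -2.51 ± 0.38 (SE, edgeR's adjusted p = 0.00103).

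*Ccna2*, cyclin A2, which acts in S phase and G2, had 349, 302, and 330.3 CPM in P2 cells and 145, 191, and 166 in CD54+CD31- cells. It had 86.3, 132, and 110.5 in CD31+ cells and 15.4, 34.4, and 31.7 at E18.5. Its E14.5 groups did not overlap, with P2 cells highest and CD31+ cells lowest. The fitted log2 difference was 1.57 ± 0.16 (SE, edgeR's adjusted p = 6.67e-06) in P2 against CD31+ cells. *Exosc9*, which overlaps *Ccna2* on the opposite strand, had means of 92.2, 42.1, 43.9, and 15.6 CPM in the P2, CD54+CD31-, CD31+, and E18.5 groups. *Ccnb2*, cyclin B2, had 99.01, 98.4, and 102 CPM in P2 cells and 63.9, 86.1, and 80.1 in CD54+CD31- cells. It had 36.9, 57.02, and 50.3 in CD31+ cells and 8.48, 16.02, and 14.2 at E18.5. Its groups also lay apart in the order P2, CD54+CD31-, CD31+. The difference between CD31+ and CD54+CD31- cells was -0.68 ± 0.16 (SE, edgeR's adjusted p = 0.00295), while that between P2 and CD54+CD31- cells was 0.36 ± 0.15 (SE, edgeR's adjusted p = 0.0590) and passed in 7 alternatives, such as DESeq2's size factors.

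*Cdc25b*, a phosphatase that activates CDK1, had 34.7, 38.996, and 27.1 CPM in P2 cells and 23.8, 35.9, and 26.7 in CD54+CD31- cells. It had 36.7, 39.1, and 27.7 in CD31+ cells and 33.2, 28.6, and 27.1 at E18.5. All 4 groups overlapped. The log2 fold change was -0.049 ± 0.19 (SE, edgeR's adjusted p = 0.825) in P2 against CD31+ cells, 0.25 ± 0.19 (SE, edgeR's adjusted p = 0.256) in CD31+ against CD54+CD31- cells, and 0.23 ± 0.17 (SE, edgeR's adjusted p = 0.264) at E18.5, which with the authors' factors was 0.47 (edgeR's adjusted p = 0.0411). *Cdc25c*, the phosphatase that acts at the G2 to M transition, did not share this: its E18.5 libraries (1.39, 3.47, and 3.14 CPM) were all below the 9 E14.5 libraries (8.53 to 19.7).

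The transcription factors of the late cell cycle differed in the same way as *Cdk1* and *Ccnb1*. *Foxm1*, which activates G2 and M genes, had 66.3, 74.9, and 67.1 CPM in P2 cells and 76.04, 69.6, and 64.2 in CD54+CD31- cells. It had 83.3, 76.6, and 60.6 in CD31+ cells and 10.6, 15.5, and 15.3 at E18.5, and the E14.5 groups overlapped. On the log2 scale the change was -0.03 ± 0.12 (SE, edgeR's adjusted p = 0.841) in P2 against CD54+CD31- cells, and -0.094 ± 0.12 (SE, edgeR's adjusted p = 0.513) against CD31+ cells, the latter -0.46 (edgeR's adjusted p = 0.0131) with the authors' factors. It was 0.063 ± 0.12 (SE, edgeR's adjusted p = 0.671) in CD31+ against CD54+CD31- cells and -2.16 ± 0.17 (SE, edgeR's adjusted p = 6.62e-05) at E18.5.

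*Mybl2*, which encodes B-MYB, had 139, 139.7, and 125 CPM in P2 cells and 51.3, 56.3, and 53.1 in CD54+CD31- cells. It had 65.8, 58.4, and 45.4 in CD31+ cells and 4.999, 14.1, and 13.04 at E18.5. The P2 libraries were all far above the rest of E14.5. In log2 terms the difference was 1.31 ± 0.13 (SE, edgeR's adjusted p = 5.75e-06) against CD54+CD31- cells and 1.24 ± 0.13 (SE, edgeR's adjusted p = 8.21e-06) against CD31+ cells. It was 0.071 ± 0.13 (SE, edgeR's adjusted p = 0.639) between CD31+ and CD54+CD31- cells and -2.14 ± 0.36 (SE, edgeR's adjusted p = 0.00172) at E18.5.

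**Figure D3:**
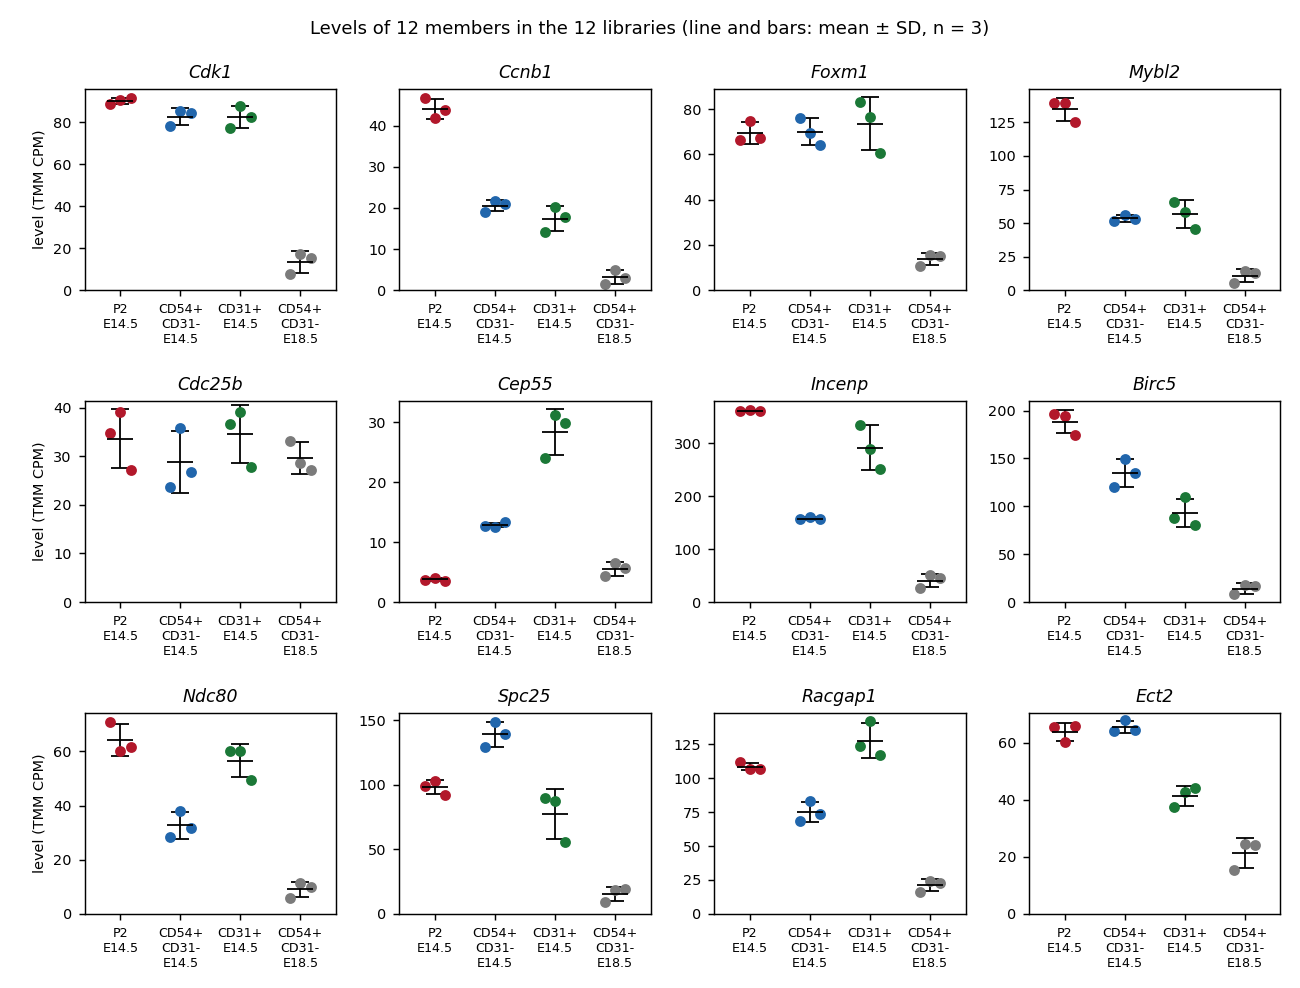
Levels (TMM CPM, linear axes from 0) of 12 members in each of the 12 libraries, with the mean and SD of each group (n = 3). *Cdk1* and *Foxm1* vary little among the E14.5 libraries while *Ccnb1* and *Mybl2* are high in P2 cells, *Cep55* is lowest in P2 cells, and *Cdc25b* overlaps in all 4 groups.

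All 5 mitotic and centrosome kinases were higher in P2 cells than in both other E14.5 groups, with medians of 0.85 against CD54+CD31- cells and 0.98 against CD31+ cells, and all 5 were lower at E18.5 (median -2.44). *Plk1*, the polo-like kinase that acts from centrosome maturation to cytokinesis, had 138, 132, and 137 CPM in P2 cells and 66.4, 72.8, and 63.95 in CD54+CD31- cells. It had 67.2, 74.6, and 62.4 in CD31+ cells and 6.28, 11.8, and 11.3 at E18.5. P2 libraries lay about 2 times above the others of E14.5, which overlapped, and the log2 fold change against CD54+CD31- cells was 0.98 ± 0.09 (SE, edgeR's adjusted p = 3.65e-06). *Nek2*, a kinase that splits the centrosomes, had 82.7, 77.3, and 84.4 CPM in P2 cells and 43.5, 47.1, and 43.3 in CD54+CD31- cells. It had 27.6, 30.1, and 26.3 in CD31+ cells and 5.22, 10.6, and 10.04 at E18.5. Its 3 E14.5 groups did not overlap, with values of 1.53 ± 0.085 (SE, edgeR's adjusted p = 1.43e-07) in P2 against CD31+ cells and -0.68 ± 0.084 (SE, edgeR's adjusted p = 4.47e-05) in CD31+ against CD54+CD31- cells.

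*Melk*, a kinase of dividing progenitors, had 56.05, 57.5, and 52.8 CPM in P2 cells and 42.97, 45.2, and 42.9 in CD54+CD31- cells. It had 31.7, 37.2, and 29.6 in CD31+ cells and 4.95, 8.33, and 8.003 at E18.5. P2 cells exceeded the others by less than for *Plk1*, with 0.33 ± 0.10 (SE, edgeR's adjusted p = 0.0113) against CD54+CD31- cells, 0.064 (edgeR's adjusted p = 0.563) with the authors' factors, and 0.74 ± 0.10 (SE, edgeR's adjusted p = 4.6e-05) against CD31+ cells. *Plk4*, which starts centriole duplication, had 93.9, 93.7, and 95.2 CPM in P2 cells and 45.5, 55.1, and 48.1 in CD54+CD31- cells. It had 49.2, 61.3, and 50.1 in CD31+ cells and 10.6, 16.3, and 15.5 at E18.5. CD31+ and CD54+CD31- libraries overlapped, with 0.10 ± 0.11 (SE, edgeR's adjusted p = 0.411), and at E18.5 it fell least of the kinases, with -1.63 ± 0.17 (SE, edgeR's adjusted p = 0.000205). *Aurka*, Aurora A, the kinase of the spindle poles, had 129, 139, and 112 CPM in P2 cells and 81.6, 90.7, and 79.8 in CD54+CD31- cells. It had 61.7, 65.7, and 50.5 in CD31+ cells and 5.43, 13.3, and 13.7 at E18.5, and fell most at E18.5, with -2.78 ± 0.34 (SE, edgeR's adjusted p = 0.000402).

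The chromosomal passenger complex, in which INCENP holds Aurora B, survivin (*Birc5*), and borealin (*Cdca8*) together at the inner centromere, was higher in P2 cells for 4 of 4 members in both comparisons. *Incenp* had 361, 364, and 361 CPM in P2 cells and 157, 161, and 156 in CD54+CD31- cells. It had 335, 289, and 251 in CD31+ cells and 26.6, 50.6, and 44.8 at E18.5. P2 libraries were highest, the CD31+ libraries close below, and the CD54+CD31- libraries lower than both. The fitted log2 difference was 0.30 ± 0.10 (SE, edgeR's adjusted p = 0.0220) in P2 against CD31+ cells, which turned to -0.073 (edgeR's adjusted p = 0.567) with the authors' factors. It was 0.88 ± 0.10 (SE, edgeR's adjusted p = 2.86e-05) in CD31+ against CD54+CD31- cells and -1.78 ± 0.22 (SE, edgeR's adjusted p = 0.000458) at E18.5. *Birc5* had 196, 195, and 175 CPM in P2 cells, 120, 149.8, and 135 in CD54+CD31- cells, 88.3, 109, and 80.9 in CD31+ cells, and 8.001, 17.9, and 16.3 at E18.5. The order of its lower groups was the reverse of that for *Incenp*, with CD31+ below CD54+CD31- cells and no overlap. Its log2 fold change was 0.47 ± 0.12 (SE, edgeR's adjusted p = 0.00641) in P2 against CD54+CD31- cells (0.21, edgeR's adjusted p = 0.126 with the authors' factors) and 1.01 ± 0.12 (SE, edgeR's adjusted p = 3.17e-05) against CD31+ cells.

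In CD31+ against CD54+CD31- cells *Birc5* had -0.55 ± 0.12 (SE, edgeR's adjusted p = 0.00284), and at E18.5 -3.08 ± 0.30 (SE, edgeR's adjusted p = 0.00015). *Cdca8* had 193, 193, and 185 CPM in P2 cells and 66.2, 81.04, and 76.3 in CD54+CD31- cells. It had 108, 113, and 89.1 in CD31+ cells and 8.47, 20.6, and 16.2 at E18.5, and the log2 fold change against CD54+CD31- cells, the highest of the 49 members, was 1.33 ± 0.11 (SE, edgeR's adjusted p = 1.43e-06). CD31+ libraries of *Cdca8* were all above the CD54+CD31- libraries (0.46 ± 0.11 SE, edgeR's adjusted p = 0.00312), as for *Incenp*, whereas *Aurkb*, the kinase of the complex, had -0.023 ± 0.10 (SE, edgeR's adjusted p = 0.847) there and overlapped.

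The 4 checkpoint genes tested were higher in P2 cells in both comparisons and lower at E18.5. *Bub1b*, which encodes BUBR1, an inhibitor of CDC20, had 232, 234, and 240.1 CPM in P2 cells and 116, 121, and 119.6 in CD54+CD31- cells. It had 165, 166, and 134 in CD31+ cells and 15.1, 30.2, and 25.96 at E18.5. The P2 libraries were highest, and CD31+ libraries all lay above the CD54+CD31- libraries. Its log2 fold change was 0.97 ± 0.093 (SE, edgeR's adjusted p = 5.4e-06) against CD54+CD31- cells and 0.59 ± 0.093 (SE, edgeR's adjusted p = 0.00019) against CD31+ cells, or 0.22 (edgeR's adjusted p = 0.0503) with the authors' factors. CD31+ against CD54+CD31- cells gave 0.37 ± 0.093 (SE, edgeR's adjusted p = 0.00485), and 0.24 (edgeR's adjusted p = 0.0681) without CD31+ replicate 2 and 0.30 (edgeR's adjusted p = 0.0501) without CD54+CD31- replicate 2.

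*Bub1*, the kinase that recruits BUBR1 to kinetochores, had 77.1, 68.5, and 80.05 CPM in P2 cells and 42.04, 48.7, and 47.4 in CD54+CD31- cells. It had 24.4, 36.9, and 37.8 in CD31+ cells and 5.17, 11.5, and 8.85 at E18.5. In contrast to *Bub1b*, the CD31+ libraries were all below the CD54+CD31- libraries. The log2 fold change was 1.17 ± 0.16 (SE, edgeR's adjusted p = 5.51e-05) in P2 against CD31+ cells and -0.48 ± 0.15 (SE, edgeR's adjusted p = 0.0182) in CD31+ against CD54+CD31- cells, or -0.47 (edgeR's adjusted p = 0.0511) without CD54+CD31- replicate 3. *Ttk*, the MPS1 kinase that starts checkpoint signalling, had 43.8, 40.5, and 49.7 CPM in P2 cells and 33.5, 35.9, and 36.3 in CD54+CD31- cells. It had 26.6, 26.3, and 29.4 in CD31+ cells and 2.48, 6.21, and 6.36 at E18.5. Its P2 libraries were above the others by little, with 0.32 ± 0.10 (SE, edgeR's adjusted p = 0.0128) against CD54+CD31- cells and -2.63 ± 0.34 (SE, edgeR's adjusted p = 0.000532) at E18.5. The first call was lost without P2 replicate 3 at 0.24 (edgeR's adjusted p = 0.0593), with the authors' factors at 0.057 (edgeR's adjusted p = 0.604), with at least 10 counts in every library at 0.23 (edgeR's adjusted p = 0.0519), and with all 12 libraries in one fit at 0.34 (edgeR's adjusted p = 0.268). *Mad2l1*, MAD2, which binds CDC20, had 64.3, 62.3, and 70.5 CPM in P2 cells and 29.1, 39.3, and 35.3 in CD54+CD31- cells. It had 25.9, 33.2, and 34.4 in CD31+ cells and 6.58, 9.41, and 7.81 at E18.5 and fell least of the 4 at E18.5, with -1.94 ± 0.16 (SE, edgeR's adjusted p = 8.91e-05).

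Of the 8 centromere and kinetochore genes, 7 were higher and 1 lower in P2 than in CD54+CD31- cells, but 4 were higher and 4 did not pass against CD31+ cells, and 5 were higher and 2 lower in CD31+ than in CD54+CD31- cells. Against CD31+ cells the authors' factors took the call from *Cenpe* at 0.05 (edgeR's adjusted p = 0.570) and *Cenpf* at 0.033 (edgeR's adjusted p = 0.710), as did the fit of all 12 libraries, while *Nuf2* passed in 7 of the alternatives, for example at 0.34 (edgeR's adjusted p = 0.0271) with the replicate block. *Cenpe*, the kinetochore motor that moves chromosomes to the metaphase plate, had 345, 341, and 372 CPM in P2 cells and 159, 164, and 154 in CD54+CD31- cells. It had 264, 264, and 256 in CD31+ cells and 23.1, 57.2, and 48.8 at E18.5. Its E14.5 groups did not overlap, with CD31+ libraries between the others, and the log2 fold change against CD54+CD31- cells was 1.13 ± 0.075 (SE, edgeR's adjusted p = 3.18e-07). *Cenpf*, a protein of the outer kinetochore, had 349.9, 346, and 375 CPM in P2 cells and 201, 224, and 202 in CD54+CD31- cells. It had 263, 286, and 255 in CD31+ cells and 39.9, 84.5, and 85.3 at E18.5, in the same order, and fell least of these genes at E18.5, with -1.40 ± 0.28 (SE, edgeR's adjusted p = 0.00372). *Knstrn*, which encodes the kinastrin of the spindle, had 74.97, 83.1, and 70.8 CPM in P2 cells and 45.5, 51.1, and 46.3 in CD54+CD31- cells. It had 76.6, 76.1, and 60.1 in CD31+ cells and 7.85, 14.3, and 13.8 at E18.5. P2 and CD31+ libraries overlapped, with 0.095 ± 0.11 (SE, edgeR's adjusted p = 0.461).

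The NDC80 complex binds the microtubule end at the kinetochore and is built of NDC80 with NUF2 and of SPC24 with SPC25. Its pairs went apart in CD31+ against CD54+CD31- cells. In P2 against CD54+CD31- cells they did not: *Ndc80* (0.96), *Nuf2* (0.84), and *Spc24* (0.82) were higher and *Spc25* was lower. *Ndc80* had 71.02, 60.3, and 61.5 CPM in P2 cells and 28.3, 38.1, and 31.8 in CD54+CD31- cells. It had 60.02, 60.2, and 49.5 in CD31+ cells and 5.87, 11.3, and 10.02 at E18.5. P2 and CD31+ libraries were near each other and the CD54+CD31- libraries below both, and CD31+ against CD54+CD31- cells gave 0.78 ± 0.13 (SE, edgeR's adjusted p = 0.000329). *Nuf2* had 108, 113, and 95.2 CPM in P2 cells and 49.2, 65.1, and 60.1 in CD54+CD31- cells. It had 85.8, 95.02, and 67.2 in CD31+ cells and 7.01, 12.4, and 12.8 at E18.5, in the same direction (0.50 ± 0.14 SE, edgeR's adjusted p = 0.0103), or 0.31 (edgeR's adjusted p = 0.0998) without CD31+ replicate 2.

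*Spc24* had 76.7, 84.96, and 71.9 CPM in P2 cells and 40.8, 47.1, and 42.5 in CD54+CD31- cells. It had 30.1, 30.9, and 23.3 in CD31+ cells and 5.66, 7.53, and 8.28 at E18.5. Here the CD31+ libraries were lowest of the E14.5 groups, with 1.46 ± 0.12 (SE, edgeR's adjusted p = 1.82e-06) in P2 against CD31+ cells and -0.64 ± 0.12 (SE, edgeR's adjusted p = 0.000893) in CD31+ against CD54+CD31- cells. *Spc25* had 99.5, 103, and 92.2 CPM in P2 cells and 129, 149, and 139.6 in CD54+CD31- cells. It had 90.2, 87.7, and 55.5 in CD31+ cells and 9.47, 18.5, and 18.9 at E18.5. CD54+CD31- libraries were highest, unlike most members. On the log2 scale the change was -0.52 ± 0.16 (SE, edgeR's adjusted p = 0.0143) in P2 against CD54+CD31- cells, -0.47 (edgeR's adjusted p = 0.0550) without P2 replicate 3. It was -0.85 ± 0.16 (SE, edgeR's adjusted p = 0.000953) in CD31+ against CD54+CD31- cells and -2.97 ± 0.26 (SE, edgeR's adjusted p = 0.000106) at E18.5.

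Among the APC/C genes and the proteins it acts on, *Espl1*, separase, which cuts cohesin at anaphase, had 113, 111, and 115 CPM in P2 cells and 48.7, 47.6, and 45.4 in CD54+CD31- cells. It had 55.7, 48.7, and 47.7 in CD31+ cells and 5.05, 12.2, and 10.9 at E18.5. P2 libraries were about 2 times the other E14.5 libraries, which overlapped, with 1.24 ± 0.086 (SE, edgeR's adjusted p = 4.47e-07) against CD54+CD31- cells and 0.095 ± 0.085 (SE, edgeR's adjusted p = 0.351) between CD31+ and CD54+CD31- cells. *Pttg1*, securin, the inhibitor that separase is freed from, had 10.2, 9.16, and 9.298 CPM in P2 cells and 9.39, 12.2, and 12.04 in CD54+CD31- cells. It had 9.03, 8.11, and 7.98 in CD31+ cells and 4.66, 4.86, and 5.29 at E18.5. The P2 libraries overlapped the CD54+CD31- libraries and lay just above the CD31+ libraries, with neither difference passing the test, whereas *Espl1* passed in both comparisons. In log2 terms the difference of *Pttg1* was -0.25 ± 0.14 (SE, edgeR's adjusted p = 0.128) against CD54+CD31- cells, -0.51 (edgeR's adjusted p = 0.00557) with the authors' factors, and -0.34 (edgeR's adjusted p = 0.0476) without CD54+CD31- replicate 1. It was 0.18 ± 0.14 (SE, edgeR's adjusted p = 0.253) against CD31+ cells and -0.99 ± 0.14 (SE, edgeR's adjusted p = 0.000846) at E18.5.

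*Cdca3*, a factor for the destruction of the WEE1 kinase, had 129, 139.9, and 119 CPM in P2 cells and 118, 128, and 116 in CD54+CD31- cells. It had 59.2, 59.3, and 43.9 in CD31+ cells and 6.33, 13.7, and 14.7 at E18.5. P2 and CD54+CD31- libraries overlapped at about 2 times the CD31+ libraries, with 1.24 ± 0.12 (SE, edgeR's adjusted p = 6.58e-06) in P2 against CD31+ cells and -1.17 ± 0.12 (SE, edgeR's adjusted p = 1.34e-05) in CD31+ against CD54+CD31- cells. Its fall at E18.5, -3.21 ± 0.31 (SE, edgeR's adjusted p = 0.000149), was the lowest value of the 49 members. *Cdc20* and *Ube2c*, the activator of the APC/C and its ubiquitin-conjugating enzyme, were higher in P2 cells in both comparisons (0.74 and 0.48 against CD54+CD31- cells, 1.21 and 0.67 against CD31+ cells). Against CD54+CD31- cells the call of *Ube2c* was lost with the authors' factors at 0.22 (edgeR's adjusted p = 0.120) and with all 12 libraries in one fit at 0.50 (edgeR's adjusted p = 0.0841).

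The 7 spindle motors and microtubule proteins were all higher in P2 cells in both comparisons and all lower at E18.5, with medians of 0.60, 0.55, and -1.95. With the authors' factors 4 of the 7 lost the call against CD31+ cells, *Kif4* at 0.16 (edgeR's adjusted p = 0.0590), *Tpx2* at 0.18 (edgeR's adjusted p = 0.0711), *Nusap1* at 0.08 (edgeR's adjusted p = 0.571), and *Ckap2*. *Tpx2*, which targets Aurora A to the spindle, had 333, 327, and 347 CPM in P2 cells and 152, 181, and 167 in CD54+CD31- cells. It had 222, 253, and 208 in CD31+ cells and 23.6, 45.98, and 44.4 at E18.5. P2 libraries were highest, with 0.99 ± 0.10 (SE, edgeR's adjusted p = 5.67e-06) against CD54+CD31- cells, and CD31+ libraries were above CD54+CD31- libraries, with 0.45 ± 0.10 (SE, edgeR's adjusted p = 0.00206). *Kif11*, the motor that pushes the poles apart, had 305, 289, and 309 CPM in P2 cells and 181, 205, and 202 in CD54+CD31- cells. It had 155, 174, and 157 in CD31+ cells and 20.1, 50.3, and 43.2 at E18.5. CD31+ libraries were below CD54+CD31- libraries, with -0.28 ± 0.083 (SE, edgeR's adjusted p = 0.0120), and P2 against CD31+ cells gave 0.88 ± 0.083 (SE, edgeR's adjusted p = 4.47e-06).

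*Nusap1*, which bundles spindle microtubules, had 138, 149, and 126 CPM in P2 cells and 93.1, 103, and 99.1 in CD54+CD31- cells. It had 105, 114, and 82.4 in CD31+ cells and 14.3, 30.6, and 28.6 at E18.5, with 0.47 ± 0.12 (SE, edgeR's adjusted p = 0.00557) in P2 against CD54+CD31- cells and 0.21 (edgeR's adjusted p = 0.157) with the authors' factors. *Ckap2*, a spindle-associated protein, had 42.5, 40.2, and 41.4 CPM in P2 cells and 27.8, 30.6, and 26.6 in CD54+CD31- cells. It had 32.2, 36.6, and 31.6 in CD31+ cells and 4.86, 9.63, and 7.55 at E18.5. In P2 against CD31+ cells it had 0.29 ± 0.091 (SE, edgeR's adjusted p = 0.0134), which turned to -0.075 (edgeR's adjusted p = 0.419) with the authors' factors, and at E18.5 -1.77 ± 0.24 (SE, edgeR's adjusted p = 0.00063). *Kif2c*, which depolymerises microtubules at centromeres, had 102, 98.8, and 96.3 CPM in P2 cells and 68.7, 65.4, and 59.8 in CD54+CD31- cells. It had 61.95, 72.97, and 55.9 in CD31+ cells and 6.98, 12.7, and 13.001 at E18.5 and fell most of this group at E18.5, with -2.39 ± 0.24 (SE, edgeR's adjusted p = 0.000173).

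The genes of the spindle midzone and of cytokinesis were divided. *Cep55*, which brings the abscission machinery to the midbody, had 3.72, 4.08, and 3.504 CPM in P2 cells and 12.7, 12.6, and 13.3 in CD54+CD31- cells. It had 24.05, 31.2, and 29.9 in CD31+ cells and 4.32, 6.59, and 5.64 at E18.5. P2 libraries were the lowest of all 12, CD31+ libraries the highest, and the E18.5 libraries lay between P2 and CD54+CD31- libraries. The fitted log2 difference was -1.79 ± 0.13 (SE, edgeR's adjusted p = 6.05e-07) in P2 against CD54+CD31- cells and -2.92 ± 0.13 (SE, edgeR's adjusted p = 5.25e-08) against CD31+ cells, the lowest of the 49 members in both. In CD31+ against CD54+CD31- cells it was 1.13 ± 0.12 (SE, edgeR's adjusted p = 1.61e-05), the highest of the 49, and at E18.5 it was -1.04 ± 0.17 (SE, edgeR's adjusted p = 0.00146).

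*Kif20b*, a midzone kinesin, had 178, 159.9, and 187 CPM in P2 cells and 82.01, 91.4, and 83.1 in CD54+CD31- cells. It had 88.3, 92.3, and 87.03 in CD31+ cells and 14.5, 23.97, and 23.4 at E18.5. P2 libraries were about 2 times the others of E14.5, which overlapped, with 1.01 ± 0.086 (SE, edgeR's adjusted p = 2.05e-06) against CD54+CD31- cells. *Kif20a*, the kinesin that carries the passenger complex to the midzone, had 152, 151, and 139 CPM in P2 cells and 75.6, 81.7, and 76.98 in CD54+CD31- cells. It had 47.6, 65.6, and 54.8 in CD31+ cells and 7.85, 15.6, and 15.1 at E18.5. Its CD31+ libraries were below the CD54+CD31- libraries, with 1.39 ± 0.11 (SE, edgeR's adjusted p = 1.63e-06) in P2 against CD31+ cells and -2.42 ± 0.25 (SE, edgeR's adjusted p = 0.000202) at E18.5. *Cdc23*, which overlaps *Kif20a* on the opposite strand, had means of 98.1, 60.9, 56.1, and 30.2 CPM in the P2, CD54+CD31-, CD31+, and E18.5 groups.

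Centralspindlin, which pairs the kinesin *Kif23* with *Racgap1* and recruits *Ect2*, the activator of RHOA at the cleavage furrow, had its parts in different order. *Kif23* had 88.1, 79.2, and 87.6 CPM in P2 cells and 48.3, 51.4, and 49.9 in CD54+CD31- cells. It had 67.9, 76.4, and 80.4 in CD31+ cells and 19.1, 29.2, and 24.7 at E18.5. P2 and CD31+ libraries overlapped, and the fall at E18.5, -0.85 ± 0.15 (SE, edgeR's adjusted p = 0.00196), was the smallest among the 48 members called lower. *Racgap1* had 112, 107, and 107 CPM in P2 cells and 68.2, 82.99, and 73.8 in CD54+CD31- cells. It had 124, 142, and 117 in CD31+ cells and 16.02, 24.6, and 22.5 at E18.5. CD31+ libraries were the highest of all groups, above CD54+CD31- cells by 0.76 ± 0.10 (SE, edgeR's adjusted p = 6.43e-05). P2 against CD31+ cells gave -0.24 ± 0.10 (SE, edgeR's adjusted p = 0.0447) for *Racgap1*, and this call was lost with each of the 9 E14.5 libraries left out in turn, as in -0.10 (edgeR's adjusted p = 0.412) without CD31+ replicate 2. *Ect2* had 65.7, 60.3, and 65.9 CPM in P2 cells and 64.2, 67.98, and 64.5 in CD54+CD31- cells. It had 37.5, 42.7, and 44.2 in CD31+ cells and 15.3, 24.4, and 24.3 at E18.5. P2 and CD54+CD31- libraries overlapped, and the CD31+ libraries were lower than both, with -0.67 ± 0.087 (SE, edgeR's adjusted p = 6.68e-05) in CD31+ against CD54+CD31- cells.

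*Top2a*, the topoisomerase that untangles sister chromatids, had 933, 896, and 1036 CPM in P2 cells and 526, 580.4, and 563 in CD54+CD31- cells. It had 558, 625, and 589.9 in CD31+ cells and 72.1, 158, and 142 at E18.5. P2 libraries were highest and the other E14.5 groups overlapped. The log2 fold change was 0.76 ± 0.088 (SE, edgeR's adjusted p = 2.2e-05) against CD54+CD31- cells, and 0.68 ± 0.088 (SE, edgeR's adjusted p = 4.76e-05) against CD31+ cells. It was 0.08 ± 0.088 (SE, edgeR's adjusted p = 0.443) between CD31+ and CD54+CD31- cells and -1.98 ± 0.28 (SE, edgeR's adjusted p = 0.000797) at E18.5. *Mki67* had 3164, 2876, and 3330.1 CPM in P2 cells and 1530.1, 1747, and 1524 in CD54+CD31- cells. It had 1466, 1698, and 1628 in CD31+ cells and 197, 601, and 578 at E18.5. It followed *Top2a* in P2 cells, with 0.95 ± 0.10 (SE, edgeR's adjusted p = 1.03e-05) against CD54+CD31- cells and 0.96 ± 0.10 (SE, edgeR's adjusted p = 9.14e-06) against CD31+ cells. CD31+ and CD54+CD31- cells gave -0.01 ± 0.10 (SE, edgeR's adjusted p = 0.933), and E18.5 gave -1.63 ± 0.40 (SE, edgeR's adjusted p = 0.0100).

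Unequal change of partners was also seen in ratios of raw counts within a library, on which no library scaling acts; the pairs were chosen after their values were seen and the ratios carry no test. *Ccnb1* counts per *Cdk1* count were 0.528, 0.461, and 0.479 in P2 libraries, 0.243, 0.253, and 0.249 in CD54+CD31-, 0.185, 0.230, and 0.216 in CD31+, and 0.205, 0.283, and 0.197 at E18.5. *Mybl2* counts per *Foxm1* count were 2.10, 1.87, and 1.86 in P2 libraries and between 0.474 and 0.906 in the other 9. For both pairs the P2 libraries stood above all others.

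The counts of *Spc24* and *Spc25* per count of *Ndc80* and *Nuf2* were 1.04 ± 0.0512 (SD, n = 3) in P2, 2.02 ± 0.151 in CD54+CD31-, 0.755 ± 0.0753 in CD31+, and 1.15 ± 0.0512 in E18.5 libraries. *Incenp* per *Birc5* was 1.92 ± 0.123, 1.18 ± 0.120, 3.18 ± 0.581, and 2.97 ± 0.316 in the same order. *Ect2* per *Racgap1* was 0.589 ± 0.0254, 0.879 ± 0.0613, 0.327 ± 0.0432, and 1.01 ± 0.0643. In these 3 ratios the CD31+ and the CD54+CD31- libraries of E14.5 did not overlap, with P2 libraries between them. The first ratio pools *Spc24* and *Spc25*, which moved in opposite directions in P2 against CD54+CD31- cells. *Spc25* gave most of the pooled counts in CD54+CD31- libraries, with 4565, 4729, and 5659 against 1443, 1497, and 1724 for *Spc24*. *Cep55* per *Kif23* was 0.0446 ± 0.00611 in P2 libraries against 0.258 ± 0.0121 in CD54+CD31-, 0.378 ± 0.0274 in CD31+, and 0.227 ± 0.00129 at E18.5.

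**Figure D4:**
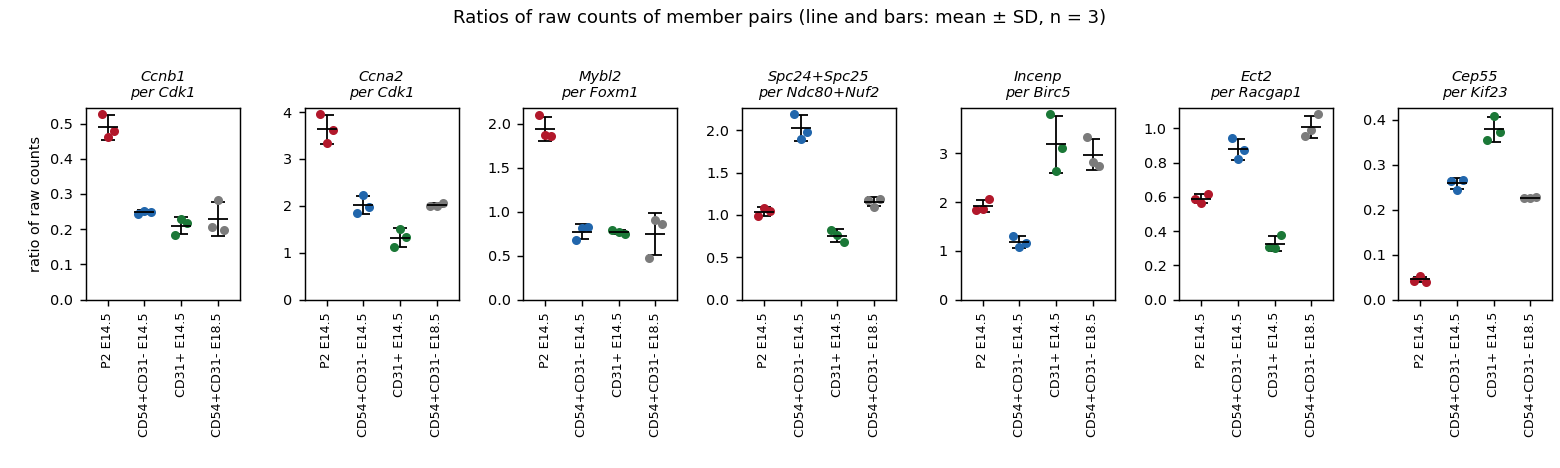
Ratio of raw counts of 7 member pairs within each library (points), with the mean and SD of each group (n = 3), on linear axes from 0. P2 libraries stand above the others for *Ccnb1* and *Ccna2* per *Cdk1* and *Mybl2* per *Foxm1*, and below them for *Cep55* per *Kif23*.

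Levels were also divided by the length of a gene's merged annotated exons, to set genes beside each other. That length covers all annotated transcripts, whichever were present, so the order of genes is approximate. On this scale *Mki67* was first in all 4 groups, at 310.4 CPM per kb in P2, 159 in CD54+CD31-, 159 in CD31+, and 45.6 in E18.5 libraries. *Top2a* was second in P2 cells (106), followed by *Incenp* (83.6) and *Ccna2* (80.1). In CD54+CD31- cells *Ccnb2* (50.1) and *Spc25* (43.7) came next after *Top2a* (61.7), and in CD31+ cells *Incenp* (67.5) stood beside *Top2a* (65.6). The lowest detected member was *Cep55* in P2 cells (1.297) and *Cdc25c* in the other groups (2.92, 2.35, and 0.542). The spread between the 3 libraries of a group, as the median coefficient of variation over the members, was 5.64% in P2, 6.77% in CD54+CD31-, 12.6% in CD31+, and 33.7% in E18.5 libraries. P2 cells had the highest mean of the E14.5 groups for 42 members, CD54+CD31- cells for 3, and CD31+ cells for 4. Which group had the highest mean was not counted over all genes.

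Other genes of the pathway were mostly higher in P2 cells too. Of 80 tested mitotic genes outside the 51, 69 were higher and 0 lower against CD54+CD31- cells (median 0.85), led by *Kif15*, a spindle kinesin (1.65 ± 0.071 SE, edgeR's adjusted p = 1.26e-08), *Cenpo* of the inner kinetochore (1.65 ± 0.11 SE, edgeR's adjusted p = 2.88e-07), and *Knl1*, the scaffold that BUB1 binds (1.62 ± 0.14 SE, edgeR's adjusted p = 2.8e-06). Of 35 DNA replication genes, which act in S phase, 33 were higher and 0 lower (median 1.21), led by *Mcm10* (1.87 ± 0.11 SE, edgeR's adjusted p = 1.1e-07), *Orc1* (1.86 ± 0.12 SE, edgeR's adjusted p = 2.17e-07), and *Fen1* (1.69 ± 0.14 SE, edgeR's adjusted p = 2.02e-06). The count of 0 lower in each of these lists was 1 with the authors' factors, and also 1 for the mitotic genes without CD54+CD31- replicate 2. The share called was 86.2% of the mitotic and 94.3% of the DNA replication genes, beside 70.0% of all genes tested (33.8% higher). Against CD31+ cells 67 of the 80 mitotic genes were higher and 4 lower (7 lower with the authors' factors), namely *Depdc1b* (-0.95), *Cenpj* (-0.93), *Cenpt* (-0.81), and *Fam83d* (-0.49), and 35 of 35 DNA replication genes were higher (median 1.36). *Fam83d* did not pass without CD31+ replicate 2 (-0.35, edgeR's adjusted p = 0.0784) or without P2 replicate 3 (-0.37, edgeR's adjusted p = 0.0527). In this comparison 88.8% of the mitotic and 100% of the DNA replication genes were called, beside 73.7% of all genes tested (34.3% higher).

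The 16 subunits and enzymes of the APC/C, most of which are present throughout the cell cycle, had 11 higher and 2 lower in P2 than in CD54+CD31- cells (7 higher with the authors' factors), the lower being *Anapc13* (-0.96 ± 0.17 SE, edgeR's adjusted p = 0.00043) and *Anapc4* (-0.37 ± 0.085 SE, edgeR's adjusted p = 0.00303). Against CD31+ cells 10 were higher (4 with the authors' factors) and 1 lower, *Anapc2* (-0.25 ± 0.10 SE, edgeR's adjusted p = 0.0465), whose call was lost in 8 of the 9 fits with 1 E14.5 library left out. Of 10 cohesin genes 8 were higher and 0 lower against CD54+CD31- cells, led by *Pds5a* (1.16 ± 0.089 SE, edgeR's adjusted p = 9.74e-07) and *Wapl* (1.12 ± 0.14 SE, edgeR's adjusted p = 3.73e-05), which release cohesin from chromatin. Against CD31+ cells 8 were higher (3 with the authors' factors) and 1 lower, *Stag1* (-0.21 ± 0.075 SE, edgeR's adjusted p = 0.0277), whose call was lost in 7 of those 9 fits. The share called against CD54+CD31- cells was 81.2% of the APC/C and 80% of the cohesin genes, beside 70.0% of all genes tested (33.8% higher). Against CD31+ cells the shares were 68.8% and 90%, beside 73.7% (34.3% higher), so the APC/C share was below that of all genes there.

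Of the 17 genes of the MuvB core, the pocket proteins, and the E2F factors, which act on the promoters of these genes, 14 were higher (8 with the authors' factors) and 1 lower in P2 than in CD54+CD31- cells. *E2f4*, the E2F factor of the repressor complex in resting cells, led with 1.85 ± 0.11 (SE, edgeR's adjusted p = 1.46e-07), followed by the pocket protein *Rbl2* (1.41 ± 0.12 SE, edgeR's adjusted p = 1.84e-06) and the E2F partner *Tfdp1* (1.39 ± 0.092 SE, edgeR's adjusted p = 3.29e-07), and *E2f5* was lower (-0.56 ± 0.11 SE, edgeR's adjusted p = 0.00125). Against CD31+ cells 12 were higher and 2 lower (7 and 5 with the authors' factors), with *E2f4* at 1.77 ± 0.11 (SE, edgeR's adjusted p = 2.71e-07). The lower ones were *E2f7*, a repressor of E2F targets (-1.57 ± 0.12 SE, edgeR's adjusted p = 1.17e-06), and *Rb1*, the retinoblastoma protein (-0.55 ± 0.13 SE, edgeR's adjusted p = 0.00235). These were also the highest values of the list in CD31+ against CD54+CD31- cells, a comparison that shares the CD31+ libraries, with 2.02 ± 0.13 (SE, edgeR's adjusted p = 2.42e-07) for *E2f7* and 1.78 ± 0.13 (SE, edgeR's adjusted p = 7.94e-07) for *Rb1*. In P2 against CD54+CD31- cells 88.2% of this list was called, beside 70.0% of all genes tested. Against CD31+ cells it was 82.4%, beside 73.7%.

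In CD31+ against CD54+CD31- cells calls in the other lists went in both directions: 20 higher and 15 lower of 80 mitotic genes, 9 and 13 of 35 DNA replication genes, 4 and 3 of 16 APC/C genes, 5 and 2 of 10 cohesin genes, and 6 and 3 of 17 MuvB and E2F genes. The share called was 43.8% of the mitotic genes, 62.9% of the DNA replication genes, 43.8% of the APC/C, 70% of the cohesin, and 52.9% of the MuvB and E2F genes, beside 61.2% of the members and 65.6% of all genes tested. *Depdc1b* (1.26 ± 0.14 SE, edgeR's adjusted p = 2.42e-05) and the centriole protein gene *Cenpj* (1.24 ± 0.086 SE, edgeR's adjusted p = 5.33e-07) were among the highest, and *Anapc13* (-1.20 ± 0.17 SE, edgeR's adjusted p = 0.000106) was the lowest of the APC/C genes. Without CD31+ replicate 2, 13 mitotic and 4 DNA replication genes were higher, and without CD54+CD31- replicate 3, 8 mitotic genes were lower. The DNA replication genes called higher also numbered 5 without CD31+ replicate 3, CD54+CD31- replicate 1, or P2 replicate 1.

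At E18.5 80 of 80 other mitotic genes (median -1.66) and 35 of 35 DNA replication genes (median -2.19) were lower than at E14.5, led by *Shcbp1*, a midbody protein gene (-2.66 ± 0.25 SE, edgeR's adjusted p = 0.000144), and *Uhrf1*, which maintains DNA methylation at replication forks (-2.70 ± 0.23 SE, edgeR's adjusted p = 8.53e-05). The APC/C had 12 lower and 0 higher of 16 (median -0.69), and cohesin 5 lower (3 with the authors' factors) and 2 higher of 10 (median -0.25), which is 70% called beside 69.4% of all genes tested, the higher being the cohesin loader genes *Nipbl* (0.48 ± 0.10 SE, edgeR's adjusted p = 0.00561) and *Mau2* (0.44 ± 0.082 SE, edgeR's adjusted p = 0.00276). Of the MuvB and E2F genes 11 were lower and 5 higher, which is 94.1% called, where the APC/C had 75%. The lowest was *E2f8* (-2.36 ± 0.37 SE, edgeR's adjusted p = 0.00128), and *Rbl2*, p130, the pocket protein of resting cells, was the highest (1.55 ± 0.13 SE, edgeR's adjusted p = 9.13e-05). Its levels were 39.8, 34.5, and 36.8 CPM in P2 cells and 13.1, 14.2, and 13.9 in CD54+CD31- cells. It had 16.6, 21.98, and 17.9 in CD31+ cells and 40.98, 31.8, and 32.9 at E18.5, so every E18.5 library was above every CD54+CD31- library of E14.5, while *Mybl2* and *Foxm1* were below. *Rb1* (0.63 ± 0.16 SE, edgeR's adjusted p = 0.00980), *E2f2* (0.53 ± 0.14 SE, edgeR's adjusted p = 0.0134), *E2f7* (0.50 ± 0.11 SE, edgeR's adjusted p = 0.00501), and *Tfdp2* (0.55 ± 0.16 SE, edgeR's adjusted p = 0.0205) were also higher, but the call of *Tfdp2* was lost without CD54+CD31- replicate 1 (0.43, edgeR's adjusted p = 0.0644), with the replicate block (0.54, edgeR's adjusted p = 0.0637), and with all 12 libraries in one fit (0.36, edgeR's adjusted p = 0.0511).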

How the data were processed

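Bulk RNA of 4 sorted populations was sequenced in 12 libraries, 3 per group. Each deposited table held raw counts per gene, which were tested, and a column of scores, in which the authors had multiplied those counts by 1 DESeq2 factor per library and rounded them. The scores were used only to read that factor. According to the submitters' processing notes, the authors used cutadapt 1.11, STAR 2.5.0a, featureCounts 1.4.6-p3, R 3.5.1, and DESeq2 on GRCm38. The strand setting of the counting was not given in the sources used here, and 16 of the 51 members overlap a gene on the opposite strand, where reads of both partners could not be told apart or could be left out.

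Counts were tested with edgeR 4.0.16 (R 4.3.3): TMM, filterByExpr, the quasi-likelihood test, and Benjamini-Hochberg adjustment over all genes tested, with calls at 0.05. The 9 E14.5 libraries shared 1 fit, and the 6 CD54+CD31- libraries had their own. Levels are CPM with TMM over all 12 libraries. Each SE comes from the fit, each SD from 3 libraries. The fit was also run on simulated counts in which few genes changed. That run could not test the library scaling here, where most genes tested were called. The 21 alternatives included the authors' factors, DESeq2 1.42.0, other filters, and each library left out.

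Members and lists were chosen with earlier results of these data known. Values in every library are given for the largest and smallest fold change of each role group with 4 or more tested members, plus *Foxm1*, *Mybl2*, *Top2a*, *Mki67*, *Cdk1*, and *Ccnb1*, and other members shown beside their partners were added after their values were seen. Of the other lists, up to 3 called genes with the largest change were named, plus called genes opposite to their list where there were 5 or fewer, and their alternatives were chosen after seeing the data. One gene that this rule named is not reported here. CD31+ and CD54+CD31- libraries of E14.5 with the same replicate number had deviations that correlated at 0.334, 0.260, and 0.122. All 3 CD31+ libraries correlated best with their own number, against 2 libraries in each other comparison. No label states such a pairing. Replicates are stated to be biological, from 3 litters at E14.5, and the labels tie no library to a litter.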

Additional observations from a re-analysis of the deposited data

How the results depend on the processing

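With the authors' factors, 4 members were lower in P2 than in CD54+CD31- cells (median 0.46), 5 in P2 against CD31+ cells (median 0.32), the median in CD31+ against CD54+CD31- cells was 0.097, and 1 member was higher at E18.5. In P2 against CD31+ cells these factors turned *Cdk1* to -0.25, *Incenp* to -0.073, *Ckap2* to -0.075, and *Kif23* to -0.20. They moved the share of higher calls among all genes called from 48.3% to 38.2% in P2 against CD54+CD31- cells and from 46.6% to 33.9% against CD31+ cells. With 12 libraries in one fit, 1 member was lower in P2 cells in either comparison, and 7 were higher and 8 lower in CD31+ than in CD54+CD31- cells. Against CD31+ cells 1 was also lower with no low count filter or only the 6 libraries compared, and the median with at least 10 counts in every library was 0.55. With single libraries left out, P2 against CD54+CD31- cells had 38 to 41 members higher, 1 to 3 lower, and medians of 0.69 to 0.75. P2 against CD31+ cells had 38 to 42 higher, 1 lower each time, and medians of 0.67 to 0.85, CD31+ against CD54+CD31- cells had 9 to 14 higher, 14 to 19 lower, and medians of -0.15 to -0.010, and E18.5 had 48 lower and medians of -2.36 to -1.90. The summed level in P2 cells was 7988 CPM with the authors' factors. Without the genes above 1% of a library the sums were 13504 in P2, 7718 in CD54+CD31-, and 7957 in CD31+ cells. In the bases upstream of the start alone, 33.3% of member promoters held TTTGAA and 47.6% TTTGAA or TTTAAA. The causes were not tested.

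With the replicate number as a block, 40 members were higher and 2 lower in P2 than in CD54+CD31- cells (median 0.71), 39 and 2 against CD31+ cells (median 0.70), 14 and 16 in CD31+ against CD54+CD31- cells (median -0.011), and 0 and 48 at E18.5 (median -2.24). The labels do not say for any group whether a shared number marks a shared litter. The correlations were 0.122 to 0.334 for CD31+ with CD54+CD31- and -0.0199 to 0.0839 for P2 with CD54+CD31- libraries. They were 0.0152 to 0.336 for P2 with CD31+, and 0.0173 to 0.0688 for E18.5 with E14.5 libraries. The block changed no call of a member in CD31+ against CD54+CD31- cells.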
